A study of Mus musculus with 6 samples.

Results

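The genes described here are the E2f transcription factors E2f1 to E2f8 and the genes of their Dp partners, Tfdp1 and Tfdp2, 10 genes of the 17558 in the table. They were chosen by name, after NCBI gene numbers had been matched to symbols, and the rule itself uses no measured value. RNA was sequenced from C2C12 cells. This immortalized mouse line grows as myoblasts, which withdraw from the cell cycle and fuse into myotubes when growth serum is replaced. The study asked what the splice isoforms Pkm1 and Pkm2 of the pyruvate kinase gene Pkm do in this differentiation. Control cells were labelled as wild type and stably carried a scrambled, non-targeting short hairpin RNA (shScr). The other groups were labelled as Pkm1 knockdown (shPkm1) and Pkm2 knockdown (shPkm2), each with its own stable hairpin. All cells were harvested 48 h into differentiation, in medium with horse serum and an insulin, transferrin and selenium supplement, with 2 libraries per group. The labels do not say how many hairpins or clones stand behind a group, or whether its 2 libraries came from separate cultures, so the p-values measure the spread between these libraries, which may be technical.

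E2f proteins bind DNA at the promoters of genes for DNA replication and cell cycle progression. E2f1, E2f2 and E2f3 are the activators of the family. E2f4 and E2f5 act mostly as repressors together with the pocket proteins Rb, p107 and p130, which cyclin-dependent kinases release from E2f by phosphorylation. E2f6 represses without a pocket protein, as part of a Polycomb complex, and E2f7 and E2f8 are atypical repressors that bind DNA without a Dp partner. E2f1 to E2f6 bind DNA as dimers with Dp1 (Tfdp1) or Dp2 (Tfdp2). When myoblasts differentiate, Rb-family proteins hold E2f in check and the cells leave the cycle.

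Libraries held between 18216896 and 19796036 estimated counts. Libraries of a group differed by more than sampling noise, with a chi-square per degree of freedom over genes of 31.0 for shScr, 6.01 for shPkm1 and 6.67 for shPkm2. Pkm, the targeted gene, was lower in shPkm1 than in shScr by the count test (log2 fold change -0.63, edgeR quasi-likelihood test with Benjamini-Hochberg adjusted p = 0.001069), and on log2(TPM + 1) the difference was -0.24 (limma adjusted p = 0.1244). In shPkm2 against shScr it was 0.20 and not called (edgeR adjusted p = 0.1979), and it was called higher without shScr replicate 2 (0.31, adjusted p = 0.02818), with library totals (0.52, adjusted p = 0.002427) and on log2(TPM + 1) (0.66, limma adjusted p = 0.000666). The transcript of the Pkm1 isoform lay at 546 and 589 TPM (a level scaled to transcript length and to the library) in shScr, 243 and 218 in shPkm1 and 254 and 254 in the libraries labelled shPkm2. That of the Pkm2 isoform lay at 1073 and 1517 TPM in shScr, 1278 and 1379 in shPkm1 and 2700 and 2630 in the libraries labelled shPkm2, so the labelled target was not lower there. Directions given for shPkm2 below are those of libraries that carry this label.

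Markers of differentiation and of cycling differed widely between the same groups. The summed level of 10 myotube markers was 32071 and 24431 TPM in shScr, 10953 and 11902 in shPkm1 and 253 and 254 in shPkm2. The sum of 10 cycling cell markers was 127 and 181 TPM in shScr, 333 and 333 in shPkm1 and 1116 and 1033 in shPkm2, and Mki67, a marker of cycling cells, had log2 fold changes of 1.46 in shPkm1 and 2.90 in shPkm2 over shScr (edgeR adjusted p = 5.43e-07 and 5.31e-10). The sum of 5 myoblast markers (Myod1, Myf5, Des, Cdh15 and Vcam1) was 2882 and 3069 TPM in shScr, 2617 and 2765 in shPkm1 and 1179 and 1091 in shPkm2, so markers of the labelled cell type were present in every library. They did not move together: in shPkm2 against shScr, Myod1 (-2.22), Des (-2.13) and Cdh15 (-1.43) fell on the log2 scale, and Myf5 (1.74) and Vcam1 (1.67) rose, all called. Endothelial and epithelial markers summed to at most 0.330 and 0.140 TPM in any library, and of the haematopoietic markers only Cd68 was analysed here, with 9 and 21 counts in shScr, 39 and 31 in shPkm1 and 39 and 49 in shPkm2. Cd68 was called higher in shPkm1 (log2 fold change 1.02) and in shPkm2 (1.22) against shScr. Adipoq, Plin1 and Epcam, markers of fat and epithelium, had at most 1 count in any library. The E2f and Dp values below come from the same libraries, and the part of these marker differences in them was not tested. In such bulk RNA, fewer cells of a type and less RNA per cell cannot be told apart.

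The members did not change together. Relative to shScr, E2f7 was higher in both hairpin groups and E2f2 was lower in both, and these were the largest changes of the 10 genes in shPkm2. In shPkm1, 2 members were higher (E2f5 and E2f7), 4 were lower (E2f2, E2f4, E2f6 and E2f8) and 4 did not pass the test. That balance depended on the scale: with library totals and on log2(TPM + 1), more members were called higher than lower in shPkm1. In shPkm2, 6 were higher (E2f1, E2f3, E2f5, E2f7, Tfdp1 and Tfdp2), 3 were lower (E2f2, E2f4 and E2f6) and E2f8 did not pass. Between the hairpin groups, 8 members were higher in shPkm2, E2f2 was lower and E2f4 did not pass.

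All 10 members passed the filter on low counts. They were tested with edgeR's quasi-likelihood test over 12643 genes, with a call at a Benjamini-Hochberg adjusted p under 0.05. The background is high: of all tested genes, 63.1% were called in shPkm1 against shScr (31.8% higher, 31.4% lower), 68.0% in shPkm2 against shScr (33.9% higher, 34.2% lower) and 53.0% in shPkm2 against shPkm1 (25.7% higher, 27.3% lower). Most genes were called, and the 6, 9 and 9 called members of 10 are read against that. The median log2 fold change of the 10 members was -0.06, 0.58 and 0.52 in these 3 comparisons, against -0.0001, 0.0074 and 0.0046 over all tested genes. Both comparisons with shScr use the same control libraries, so their directions are not independent.

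**Figure D1:**
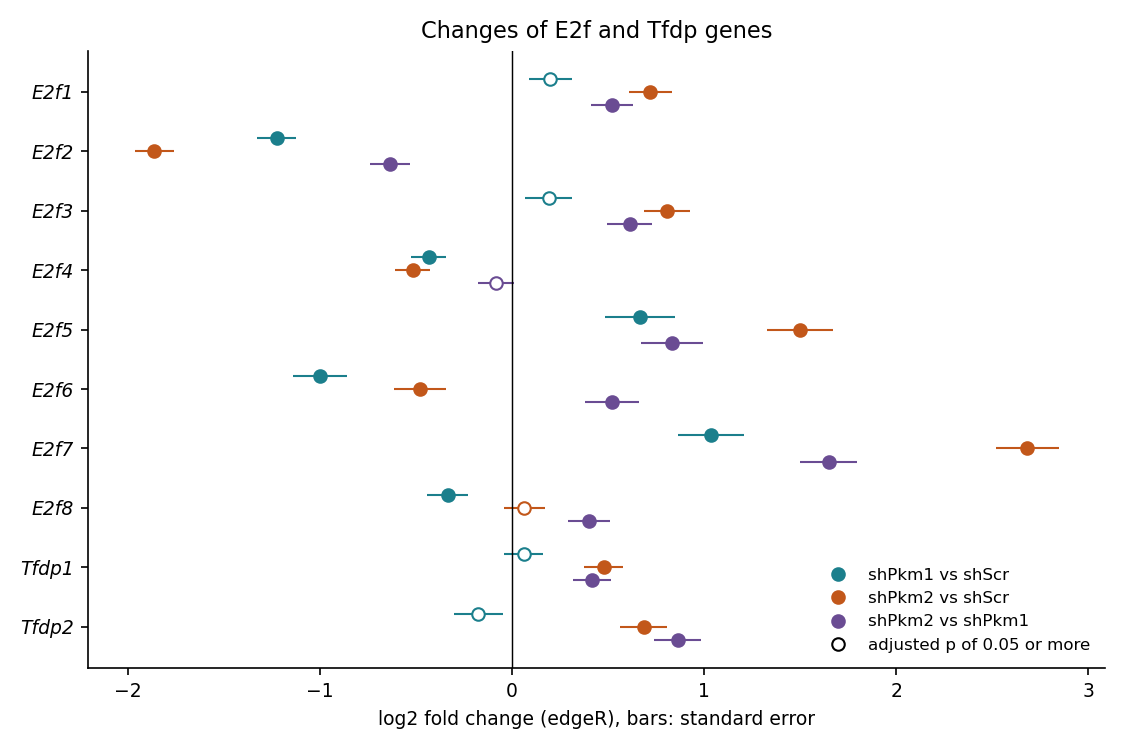
Log2 fold change (horizontal axis) of each of the 10 genes (vertical axis) in the 3 comparisons, with bars for the standard error of the edgeR fit across all 6 libraries and open points where the adjusted p was 0.05 or more. E2f7 lies at 1.03, 2.68 and 1.65 and E2f2 at -1.23, -1.86 and -0.64.

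Values by library are given first in CPM (counts scaled to library size) with edgeR's TMM factors, the same scale as the test. This scale sets the bulk of genes to no change. Scaling by library totals alone raised the median log2 fold change of all genes to 0.1944, 0.3322 and 0.1350, and limma on log2(TPM + 1) raised it to 0.3138, 0.3645 and 0.0605. The share of higher genes among those called was 50.3%, 49.8% and 48.4% with TMM, 65.8%, 69.3% and 61.3% with library totals, and 78.1%, 75.7% and 53.8% with limma on log2(TPM + 1). Some members were called on 1 of these scales and not on another, and each is named where it is described.

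**Figure D2:**
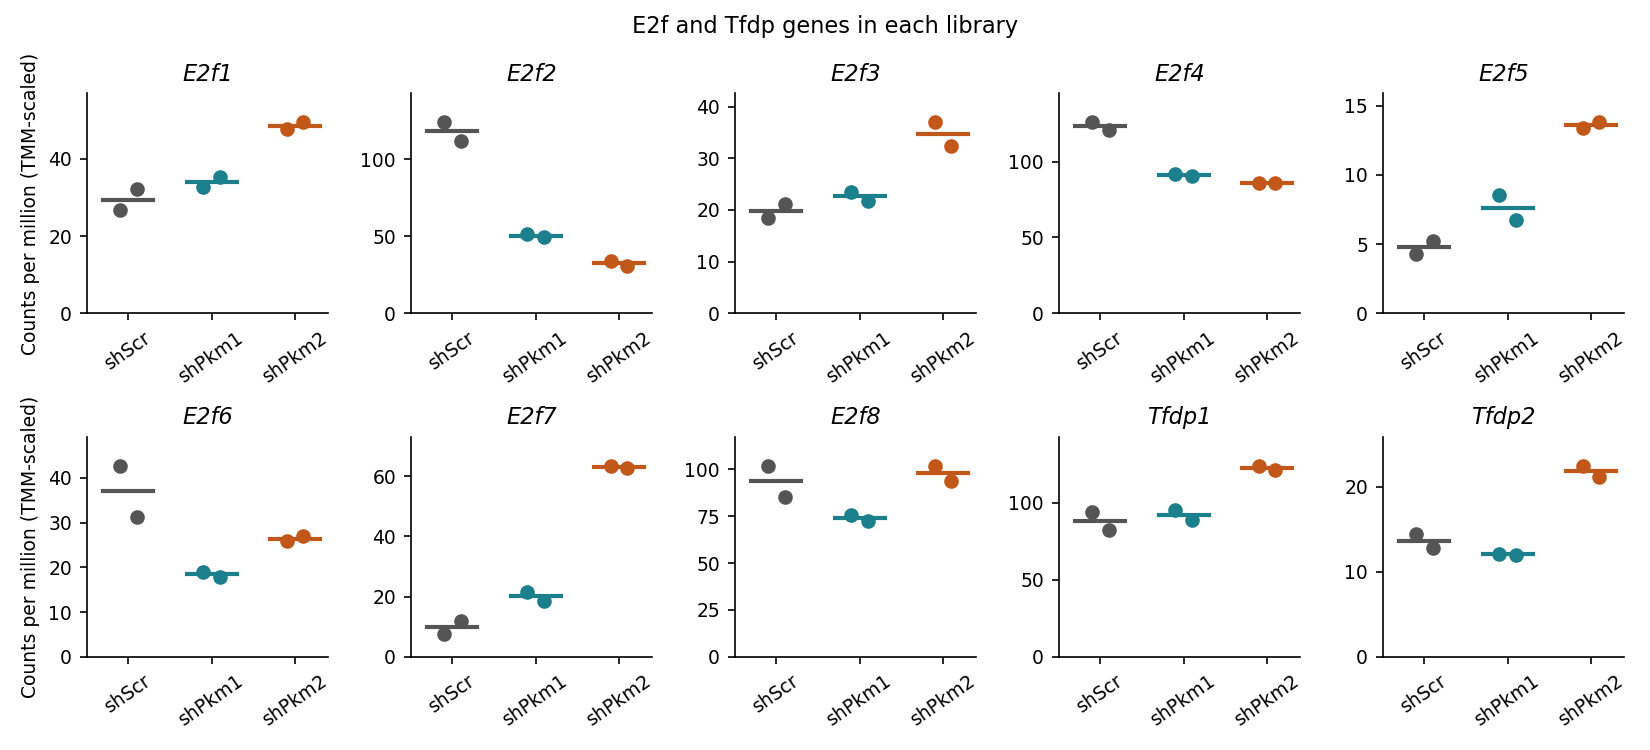
TMM-scaled CPM (vertical axis from 0, 1 panel per gene) of the 10 genes, with 1 point per library, a bar at the mean and the groups shScr, shPkm1 and shPkm2 side by side. E2f2 steps down from 124 and 112 CPM in shScr to 33.9 and 31.0 in shPkm2, and E2f7 steps up from 7.54 and 12 to 63.5 and 62.7.

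Among the activators, E2f2 fell in shPkm2 while E2f1 and E2f3 rose. E2f2 (chr4:136172274-136196057 in GRCm38, plus strand) stood at 124 and 112 CPM in shScr, 51.7 and 49.2 in shPkm1 and 33.9 and 31.0 in shPkm2. The 3 groups did not overlap, and both hairpin groups lay far below the control. Its log2 fold change in shPkm1 was -1.23 (SE 0.101, edgeR adjusted p = 3.55e-07). In shPkm2 it was -1.86 (SE 0.103, adjusted p = 3.85e-09), a level 3.64-fold lower. The hairpin groups differed by -0.64 (SE 0.103, adjusted p = 1.75e-04). Its 3 calls held under every scaling, test and left-out library tried.

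E2f1 (chr2:154559400-154569892, minus strand), the first E2f described and a driver of entry into S phase, was at 26.8 and 32.1 CPM in shScr, 32.6 and 35.2 in shPkm1 and 47.7 and 49.5 in shPkm2. The shPkm2 libraries were the highest, while those of shPkm1 began just above the upper control library. The log2 fold change was 0.72 (SE 0.112, adjusted p = 7.92e-05) in shPkm2 over shScr and 0.52 (SE 0.111, adjusted p = 0.001453) over shPkm1. In shPkm1 against shScr it was 0.20, with a 95% interval from -0.05 to 0.45 and an adjusted p of 0.1433. That comparison passed the test with library totals (0.39), with limma on log2(TPM + 1) (0.57) and without shScr replicate 2 (0.34).

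E2f3 (chr13:29906575-29986064, minus strand) was at 18.4 and 21.2 CPM in shScr, 23.5 and 21.8 in shPkm1 and 37.0 and 32.3 in shPkm2. Here too the shPkm2 libraries stood clear of the rest. The log2 fold change was 0.80 (SE 0.119, adjusted p = 5.00e-05) in shPkm2 over shScr and 0.61 (SE 0.117, adjusted p = 6.43e-04) over shPkm1. In shPkm1 against shScr it was 0.19 (95% interval -0.07 to 0.46, adjusted p = 0.1885), and it passed with library totals (0.38) and with limma on log2(TPM + 1) (0.53). E2f1 and E2f3 were each other's nearest member in pattern across the 6 libraries, with a root mean square difference of 0.1050 in centred log2 CPM.

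E2f3 has 2 annotated starts, whose products are known as E2f3a and E2f3b, with the second start inside the first intron of the longer transcript. Bases just before each start are shown because the transcript from the upstream start was called between groups, as described further on, and the downstream stretch is set beside it. They are read 5′ to 3′ on the minus strand from the RefSeq promoter table (GRCm38.p6), at chr13:29986064-29986213 for the upstream start and chr13:29984392-29984541 for the downstream start. Capitals mark a match to an E2F word, searched as TTTCCCGC, TTTGGCGC, TTTCGCGC or TTTGCCGC on both strands.
E2f3 upstream start: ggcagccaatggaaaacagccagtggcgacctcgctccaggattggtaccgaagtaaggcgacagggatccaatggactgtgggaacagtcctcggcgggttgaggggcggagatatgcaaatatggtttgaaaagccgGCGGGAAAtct
E2f3 downstream start: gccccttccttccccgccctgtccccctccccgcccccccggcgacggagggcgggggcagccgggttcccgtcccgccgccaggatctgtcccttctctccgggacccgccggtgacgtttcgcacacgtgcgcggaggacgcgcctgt
The upstream stretch holds TTTCCCGC on the reverse strand, at -11 to -4 from the start, and no match lies in the downstream stretch. A match is only a run of letters and says nothing on its own of binding.

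Among the pocket protein partners, E2f4 fell and E2f5 rose on the scale of the test. E2f4 (chr8:105297663-105305370, plus strand), the main E2f of resting cells, was at 126 and 121 CPM in shScr, 91.8 and 90.2 in shPkm1 and 86.1 and 85.6 in shPkm2. The control libraries were the highest and no groups overlapped. E2f4 changed by -0.435 on the log2 scale in shPkm1 (SE 0.0924, edgeR adjusted p = 0.001146). In shPkm2 it changed by -0.52 (SE 0.0924, adjusted p = 2.34e-04). These calls depended on the scale: on log2(TPM + 1) the values were -0.04 (limma adjusted p = 0.7296) and -0.06 (0.6036), and with library totals the second was -0.19 (adjusted p = 0.09487). The hairpin groups differed by -0.08, with a 95% interval from -0.28 to 0.12 (adjusted p = 0.465).

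E2f5 (chr3:14578602-14606309, plus strand) had the fewest counts of the family, 68 to 289 per library. It was at 4.31 and 5.25 CPM in shScr, 8.52 and 6.72 in shPkm1 and 13.4 and 13.8 in shPkm2. The groups did not overlap and rose in that order. On the log2 scale E2f5 was higher by 0.67 in shPkm1 (SE 0.183, adjusted p = 0.006304). It was higher by 1.4998 in shPkm2 (SE 0.173, adjusted p = 5.06e-06), a level 2.83-fold higher. The hairpin groups differed by 0.83 (SE 0.161, adjusted p = 7.00e-04). Without shPkm1 replicate 1 the change in shPkm1 was 0.50 and did not pass (adjusted p = 0.0738).

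E2f6 (chr12:16810909-16826752, plus strand), the pocket-independent repressor, was lowest in shPkm1. It was at 42.7 and 31.2 CPM in shScr, 19.0 and 17.8 in shPkm1 and 25.9 and 26.9 in shPkm2. The control libraries lay far apart, yet both were above all others. In shPkm1 its log2 fold change was -1.002 (SE 0.140, adjusted p = 4.06e-05). In shPkm2 it was -0.48 (SE 0.136, adjusted p = 0.006571), with shPkm2 above shPkm1 by 0.52 (SE 0.141, adjusted p = 0.00693). The fall in shPkm1 passed under every alternative. The fall in shPkm2 did not pass with library totals (-0.15, adjusted p = 0.3147), with limma on log2(TPM + 1) (-0.01, adjusted p = 0.972) or without shScr replicate 1 (-0.24, adjusted p = 0.08187), and the difference between hairpin groups was 0.47 (adjusted p = 0.06971) without shPkm1 replicate 2.

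The atypical members behaved unlike each other. E2f7 (chr10:110745439-110787384, plus strand) was at 7.54 and 12 CPM in shScr, 21.6 and 18.7 in shPkm1 and 63.5 and 62.7 in shPkm2. Its groups stood well apart, and the step from shPkm1 to shPkm2 was larger than that from shScr to shPkm1. E2f7 rose by 1.03 on the log2 scale in shPkm1 (SE 0.171, adjusted p = 1.62e-04). The rise in shPkm2 was 2.68 (SE 0.164, adjusted p = 1.01e-08), a level 6.42-fold higher. The hairpin groups differed by 1.65 (SE 0.150, adjusted p = 9.28e-07). These calls held under every alternative.

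The 250 bases before the E2f7 start are shown because it had the largest change of the family and E2f7 is itself known as an E2f target. They span chr10:110745189-110745438 on the plus strand of GRCm38.p6 (RefSeq promoter table), with the E2F word in capitals, and it lies at -198 to -191 from the start, on the reverse strand.
E2f7 promoter: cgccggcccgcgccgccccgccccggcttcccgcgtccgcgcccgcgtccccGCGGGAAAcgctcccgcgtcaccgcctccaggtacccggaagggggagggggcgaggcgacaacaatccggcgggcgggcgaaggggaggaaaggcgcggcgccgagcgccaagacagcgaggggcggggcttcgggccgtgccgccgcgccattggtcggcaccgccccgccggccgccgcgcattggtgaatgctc

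E2f8 (chr7:48866429-48882073, minus strand) was at 102 and 85.2 CPM in shScr, 75.7 and 72.4 in shPkm1 and 102 and 93.7 in shPkm2. The shPkm2 libraries overlapped those of shScr, and the shPkm1 libraries were below both. The log2 fold change was -0.34 (SE 0.108, adjusted p = 0.01559) in shPkm1, 0.06 (95% interval -0.17 to 0.29, adjusted p = 0.6194) in shPkm2, and 0.40 (SE 0.108, adjusted p = 0.006948) between the hairpin groups. None of these kept its call throughout. The first turned to 0.07 on log2(TPM + 1) and did not pass with library totals or without shScr replicate 1, shPkm1 replicate 1 or shPkm1 replicate 2 (adjusted p from 0.07157 to 0.2846). The second passed with library totals (0.39) and on log2(TPM + 1) (0.51), and the third did not pass without shPkm1 replicate 2 or shPkm2 replicate 1.

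Both Dp genes were highest in shPkm2. Tfdp1 (chr8:13338725-13378448, plus strand), which encodes the common partner Dp1, was at 94.0 and 82.5 CPM in shScr, 95.3 and 88.8 in shPkm1 and 124 and 121 in shPkm2. The shScr and shPkm1 libraries overlapped and those of shPkm2 lay above both. Tfdp1 was higher in shPkm2 by 0.48 on the log2 scale over shScr (SE 0.101, adjusted p = 9.12e-04) and by 0.42 (SE 0.1004, adjusted p = 0.003448) over shPkm1, and the latter did not pass without shPkm1 replicate 2 (0.37, adjusted p = 0.05575). In shPkm1 against shScr it was 0.06 (95% interval -0.16 to 0.28, adjusted p = 0.6174), but 0.26 with library totals (adjusted p = 0.04292) and 0.45 with limma on log2(TPM + 1) (adjusted p = 0.003493).

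The stretch before the upstream Tfdp1 starts also holds an E2F word, TTTCGCGC on the reverse strand. The main transcript of the gene by TPM, NM_009361.3, starts further downstream, at base 13339674. The bases just before that start were not searched. The table has 2 Tfdp1 windows, and the same match lies at -43 to -36 from the start at base 13338751 and at -96 to -89 from that at base 13338804. It is shown for the bases before the first base of the gene, chr8:13338601-13338724, plus strand, GRCm38.p6 (RefSeq promoter table), with the match in capitals.
Tfdp1 promoter: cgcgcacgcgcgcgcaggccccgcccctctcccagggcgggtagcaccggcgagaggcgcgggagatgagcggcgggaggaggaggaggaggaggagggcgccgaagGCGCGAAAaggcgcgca

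Tfdp2 (chr9:96196246-96323646, plus strand), for the less abundant partner Dp2, was at 14.5 and 12.8 CPM in shScr, 12.1 and 12 in shPkm1 and 22.5 and 21.2 in shPkm2. The shPkm2 libraries stood clear of all others. Its log2 fold change was 0.69 (SE 0.122, adjusted p = 2.35e-04) in shPkm2 over shScr and 0.86 (SE 0.122, adjusted p = 5.40e-05) over shPkm1. In shPkm1 against shScr it was -0.18 (95% interval -0.45 to 0.10, adjusted p = 0.2474), and its sign turned to 0.02 with library totals and 0.15 on log2(TPM + 1).

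Over the members with a window, E2F words were found in the RefSeq windows (250 bases before to 50 after a start) of E2f2, E2f3, E2f7 and Tfdp1. That is 5 of the members' 12 windows, with both Tfdp1 windows holding the same site, against 2.26% of the table's 32851 windows. E2f4 and E2f5 have no window there, so their promoters were not searched for any word. The E2f1 window lies inside the gene, downstream of both starts of its RefSeq transcripts, so the bases before those starts were not searched. Both Tfdp2 windows likewise lie at starts inside the gene. In E2f2 the word TTTGGCGC lies after the start, at bases 39 to 46. The CHR word TTTGAA was in 3 of the 12 windows (E2f2, E2f3 and E2f8), against 17.9% of all windows, and the word CCAAT was in 5 (both of E2f2, and E2f3, E2f7 and E2f8), against 37.4%. The CHR match of E2f2 lies in its second window, at a start inside the gene. The E2f8 window also lies inside its gene, at a start at base 48881596. The E2f8 transcript NM_001013368.5 starts downstream of it, at base 48881041. Both strands were searched for each word, no matches within a window overlapped, E2f2, E2f3, Tfdp1 and Tfdp2 have 2 windows each, and the stretches printed were picked after these matches had been seen. E2f2 and E2f7, with an E2F word each, moved in opposite directions, and whether the words bear on either change was not tested.

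Levels of different genes were compared in TPM, which is scaled to transcript length. In shScr the order was E2f4 (mean 87.4 TPM), Tfdp1 (48.3), E2f8 (37.2), E2f2 (33.9), E2f6 (21.3), E2f1 (15.3), E2f3 (5.71), E2f5 (3.92), Tfdp2 (2.57) and E2f7 (2.50). The last pair overlapped and all other neighbours were apart in both libraries. In shPkm2 the order was Tfdp1 (92.4), E2f4 (83.6), E2f8 (53.3), E2f1 (34.2), E2f7 (21.8), E2f6 (21.1), E2f5 (15.0), E2f3 (13.3), E2f2 (12.7) and Tfdp2 (5.64). There the pairs E2f7 and E2f6, and E2f3 and E2f2, overlapped. E2f2, the highest activator in shScr, was thus the lowest activator by mean in shPkm2, not apart from E2f3, and E2f7 went from the last place by mean to the fifth, not apart from E2f6. In shPkm1, E2f4 (84.8), Tfdp1 (66.2) and E2f8 (39.1) led, E2f1 (22.8) stood just above E2f2 (19.5), and E2f5 (8.29) overlapped both E2f3 (8.63) and E2f7 (6.66), which were apart from each other.

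The parts of the activators' summed TPM differed between groups. The sum was 51.1 and 58.6 in shScr, 52.7 and 49.2 in shPkm1 and 62.6 and 57.9 in shPkm2, so shScr overlapped both hairpin groups, while the shPkm2 sums lay above those of shPkm1. E2f2 made up 65.0% and 59.0% of it in shScr, 39.5% and 36.9% in shPkm1 and 21.7% and 20.4% in shPkm2. E2f1 made up 25.4% and 30%, 42.9% and 46.8%, and 55.1% and 58.6% in the same order, and E2f3 rose from 9.65% and 11.1% in shScr to 23.2% and 21.0% in shPkm2. E2f2 was the main activator transcript in the control and E2f1 in both hairpin groups. Shares within a library do not depend on how libraries are scaled, and with 2 libraries a group they were given no test.

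The summed TPM of all 8 E2f genes was 202 and 213 in shScr, 214 and 194 in shPkm1 and 264 and 246 in shPkm2. Of this sum, the atypical pair made up 19.9% and 18.5% in shScr, 22.6% and 22.2% in shPkm1 and 30% and 28.8% in shPkm2. Within that pair, E2f7 made up 4.46% and 8.18% in shScr, 15.1% and 13.9% in shPkm1 and 28.4% and 29.8% in shPkm2, so E2f8 stayed the larger part in every library. E2f4 and E2f5 together made up 43.2% and 44.9%, 45.7% and 45.7%, and 38.3% and 39.1%. The Dp genes gained on their partners: summed TPM of E2f1 to E2f6 per TPM of Tfdp1 and Tfdp2 was 3.16 and 3.42 in shScr, 2.25 and 2.33 in shPkm1 and 1.81 and 1.86 in shPkm2. No groups overlapped in that ratio. Tfdp1 held most of the Dp sum, with Tfdp2 between 4.13% and 5.84% of it.

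**Figure D3:**
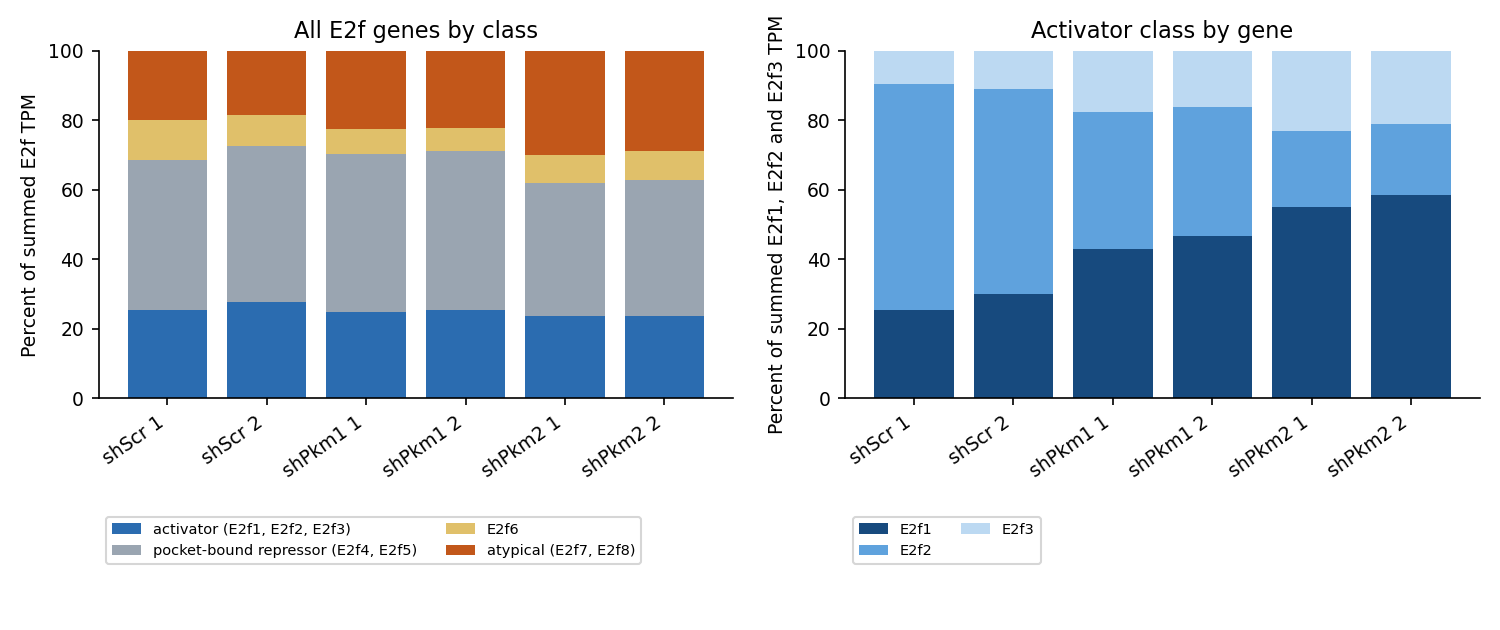
Stacked bars of the share (percent, vertical axis) of each class in the summed TPM of all E2f genes (left) and of each activator in that of E2f1, E2f2 and E2f3 (right), with 1 bar for each of the 6 libraries. The E2f2 part of the activators shrinks from 65.0% and 59.0% in shScr to 21.7% and 20.4% in shPkm2.

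The members have 64 RefSeq transcripts in the table, 28 of them of Tfdp2, and 47 passed the filter. In a separate edgeR test over 33433 transcripts, 5 member transcripts were called in shPkm1 against shScr (1 higher, 4 lower), 8 in shPkm2 against shScr (5 higher, 3 lower) and 3 in shPkm2 against shPkm1, all higher. Of all transcripts tested, 10.8% were called in the first of these (5.47% higher, 5.36% lower), 17.2% in the second (7.91% higher, 9.32% lower) and 7.91% in the third (2.87% higher, 5.04% lower). Counts of isoforms rest on how reads shared between them were divided, and most of these calls did not pass when a library was left out. E2f2 NM_177733.7 was lower than in shScr by -1.34 in shPkm1 (edgeR adjusted p = 0.007335) and -1.78 in shPkm2 (adjusted p = 0.001907). The first of these did not pass without shPkm1 replicate 1 (adjusted p = 0.07392) or replicate 2 (0.05902).

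E2f7 NM_178609.4, the main transcript of its gene, was at 1.79 and 3.21 TPM in shScr, 5.44 and 5.39 in shPkm1 and 22 and 20.3 in shPkm2. It was called higher in shPkm2 over shScr (log2 fold change 2.67, edgeR adjusted p = 0.004568) and over shPkm1 (1.90, adjusted p = 0.01824), and the latter did not pass when any of the 4 libraries of those groups was left out. Its change in shPkm1 against shScr was 0.77 and not called (adjusted p = 0.128). The only member transcript called higher there was the predicted E2f7 XM_006513882.3 (adjusted p = 0.0319), also called in shPkm2 (adjusted p = 0.02692). It was listed at 0 in both shScr libraries and lay at 1.55 and 0.610 TPM in shPkm1 and 0.540 and 0.580 in shPkm2. Both calls were lost whichever library was left out (adjusted p from 0.05825 to 0.154).

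E2f3 NM_010093.3, which begins at the upstream start shown above, was at 2.27 and 2.39 TPM in shScr, 2.61 and 2.90 in shPkm1 and 9.49 and 6.94 in shPkm2. It was higher in shPkm2 by a log2 fold change of 1.39 over shScr (edgeR adjusted p = 0.01632) and 1.496 over shPkm1 (adjusted p = 0.02369). Leaving out a library of either group compared ended each call (adjusted p from 0.05919 to 0.1514), with values from 1.19 to 1.67. E2f3 NM_001289920.1, which begins at the downstream start, was at 0.920 and 2.75 TPM in shScr, 3.36 and 3.12 in shPkm1 and 3.62 and 2.55 in shPkm2. The upstream transcript was therefore the higher of the pair in both shPkm2 libraries and the lower in both shPkm1 libraries. The difference between the 2 transcripts was not tested.

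E2f6 NM_033270.2 was lower than in shScr in both hairpin groups, by -1.15 in shPkm1 (edgeR adjusted p = 0.0327) and -0.97 in shPkm2 (adjusted p = 0.03499). It was at 18.1 and 14.9 TPM in shScr, 10.6 and 8.68 in shPkm1 and 12.3 and 10.6 in shPkm2. The predicted transcript E2f6 XM_006515148.1 was at 4.04 and 4.38, 4.19 and 2.28, and 7.93 and 8.45 TPM, highest in shPkm2. E2f8 NM_001013368.5 was at 10.6 and 9.88 TPM in shScr, 8.89 and 7.89 in shPkm1 and 17.2 and 15.0 in shPkm2, and its predicted transcript XM_006540554.3 was at 24.7 and 19.2, 29.3 and 26.5, and 30.2 and 26.7. The E2f8 transcript was called lower in shPkm1 than in shScr (-0.65, adjusted p = 0.04535) and higher in shPkm2 than in shPkm1 (0.88, adjusted p = 0.02663). Neither its calls nor those of E2f6 NM_033270.2 passed when either library of the hairpin group concerned was left out. The transcripts that were not called are given as levels only and were picked after their values had been seen.

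**Figure D4:**
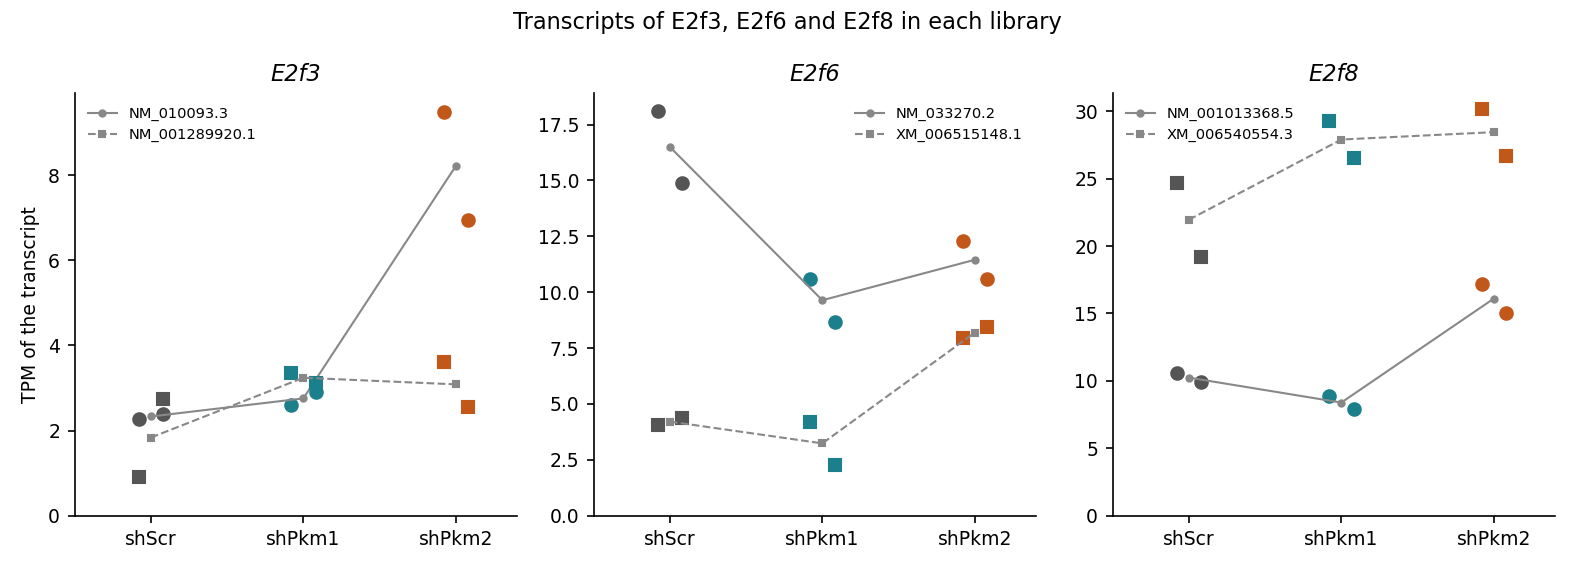
TPM (vertical axis) of 2 transcripts each of E2f3, E2f6 and E2f8 in the 6 libraries, with 1 marker shape per transcript and lines joining group means. E2f3 NM_010093.3 lies at 9.49 and 6.94 TPM in shPkm2 against 2.27 and 2.39 in shScr.

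Genes known as E2f targets were mostly higher in the hairpin groups. The list was chosen with earlier results of these data known. Of its 30 genes, 20 were higher in shPkm1 than in shScr and 10 did not pass the test. In shPkm2 all 30 were higher than in shScr and all 30 were higher than in shPkm1. Of all tested genes, 31.8%, 33.9% and 25.7% were higher in these comparisons. Every list gene named with a change from here on passed the edgeR test (adjusted p from 5.13e-11 to 0.01548) unless another p is given. Over the 30 targets the median log2 fold changes were 0.63, 1.93 and 1.29, against the medians near 0 of all genes given above. The largest rises were of Ccne2 (cyclin E2, which drives entry into S phase), with 1.65 (SE 0.180) in shPkm1 and 3.05 (SE 0.168) in shPkm2, Pola1 (a DNA polymerase subunit) with 1.40 in shPkm1 and Chek1 (a checkpoint kinase) with 2.57 in shPkm2. Orc1 and Cdc6, which load the replicative helicase, rose most from shPkm1 to shPkm2, by 2.35 and 1.83. Ccne2 lay at 1.55 and 1.91 TPM in shScr, 8.37 and 5.60 in shPkm1 and 19.4 and 19.0 in shPkm2. The cycling marker sums given above rose in the same order, and several of these targets are themselves genes of cycling cells.

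Of the genes that control E2f through G1, the pocket protein genes diverged. Rb1 was at 32.3 and 29.7 TPM in shScr, 39.3 and 34.8 in shPkm1 and 18.6 and 17.1 in shPkm2. Its log2 fold change was -0.14 in shPkm1 (edgeR adjusted p = 0.2557; 0.06 with library totals, 0.25 on log2(TPM + 1), and -0.25 and called without shScr replicate 2, adjusted p = 0.0329), -1.27 in shPkm2 (adjusted p = 3.22e-07) and -1.13 between the hairpin groups (adjusted p = 1.77e-06). Rbl1, which encodes p107 and is a known E2f target, was at 3.64 and 3.23, 9.14 and 8.87, and 17.5 and 15.9 TPM, with log2 fold changes of 1.14 (SE 0.126), 1.98 (SE 0.123) and 0.84 (SE 0.112), all called. Rbl2, which encodes p130, was higher in both hairpin groups, by 0.79 (SE 0.117) and 0.51 (SE 0.117). Between the hairpin groups it differed by -0.28 at an adjusted p of 0.04938, a call lost under most alternatives.

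Of the 18 G1 regulators listed, 16 were tested, and Cdkn2a and Cdkn2b were not analysed here. In shPkm1, 7 were higher and 5 lower, in shPkm2 9 were higher and 6 lower, and between the hairpin groups 10 were higher in shPkm2 and 5 lower. Of all genes, 31.8% were higher and 31.4% lower in the first comparison, 33.9% and 34.2% in the second and 25.7% and 27.3% in the third. Ccnd1 (cyclin D1) rose by 2.12 in shPkm1 and 3.06 in shPkm2, from a mean of 7.95 ± 1.34 TPM (SD, n = 2) in shScr to 46.5 and 43.5 in shPkm1, and to 91.7 and 88.9 in shPkm2. Ccnd3 (cyclin D3) changed by -1.41 in shPkm1 and by -2.58 in shPkm2. Ccnd2 (cyclin D2) changed by -1.32 in shPkm1 (-0.73 on log2(TPM + 1)) and by -0.55 in shPkm2. In TPM, Ccnd2 overlapped between shScr (4.54 and 7.82) and shPkm2 (6.52 and 5.00). Fbxo5, an inhibitor of the anaphase-promoting complex, rose by 2.95 in shPkm2 over shScr and 1.602 over shPkm1, and Skp2, which targets Cdk inhibitors for degradation, by 1.17 over shPkm1.

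Cdkn1a and Cdkn1c, for Cdk inhibitors, had the largest falls of the list in shPkm2. Cdkn1a (p21) was at 2841 and 2898 TPM in shScr, 2143 and 1934 in shPkm1 and 275 and 287 in shPkm2, with log2 fold changes of -3.81 (SE 0.141) in shPkm2 against shScr and -2.92 (SE 0.135) against shPkm1. Cdkn1c (p57) was at 12 and 5.13 TPM in shScr, 60.5 and 54.6 in shPkm1 and 0.400 and 0.140 in shPkm2. It was higher in shPkm1 by 2.34 (SE 0.269), or 3.17 without shScr replicate 1. Against shScr it changed by -5.46 in shPkm2, or -4.63 without the same library and -6.29 without shPkm2 replicate 1, and against shPkm1 by -7.80, or -8.65 without shPkm2 replicate 1. On log2(TPM + 1) these last values were -2.82 and -5.53. The level in shPkm2 is close to 0, so the size of the falls is poorly fixed.

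Of 16 genes for the MuvB core, its partner Foxm1 and the Polycomb complex that holds E2f6, all were tested. In shPkm1, 7 were higher and 4 lower, in shPkm2 6 were higher and 2 lower, and between the hairpin groups 6 were higher in shPkm2 and 1 lower. The 11, 8 and 7 called of 16 stand beside 63.1%, 68.0% and 53.0% of all genes. With limma on log2(TPM + 1), 11 were higher in shPkm2 against shScr, and the lower calls there and in shPkm1 were lost. Foxm1, which drives mitotic genes, was higher than in shScr by 0.73 in shPkm1 and 1.97 in shPkm2. It was higher in shPkm2 than in shPkm1 by 1.24. Cbx3, a chromatin protein of the E2f6 complex, rose by 1.04 and 1.56 in the hairpin groups. Mga, the DNA-binding scaffold of that complex, rose by 0.84 in shPkm1 and 0.79 in shPkm2. L3mbtl2 of the same complex changed by -0.78 in shPkm1 (-0.36 on log2(TPM + 1), limma adjusted p = 0.05205). Lin37 of MuvB changed by -0.45 and -0.69, and Ring1, a ubiquitin ligase, by -0.66 in shPkm2 against shScr and -0.64 against shPkm1, while Lin54, which binds CHR elements, was 0.82 higher there. On log2(TPM + 1) the falls of Lin37 in both hairpin groups and of Ring1 in shPkm2 against shScr did not pass the test, and that of Lin37 in shPkm1 also failed with library totals and without shScr replicate 1 or either shPkm1 library.

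Germline genes known to be repressed by E2f6 were near the limit of detection. Stag3, Smc1b, Tuba3a and Tuba3b had at most 2 counts in any library, under the floor of 3 counts that covers counting error only, and Slc25a31 was not analysed here. A change in them was not detectable at this depth, in the group with the lowest E2f6 level or in the others.

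**Figure D5:**
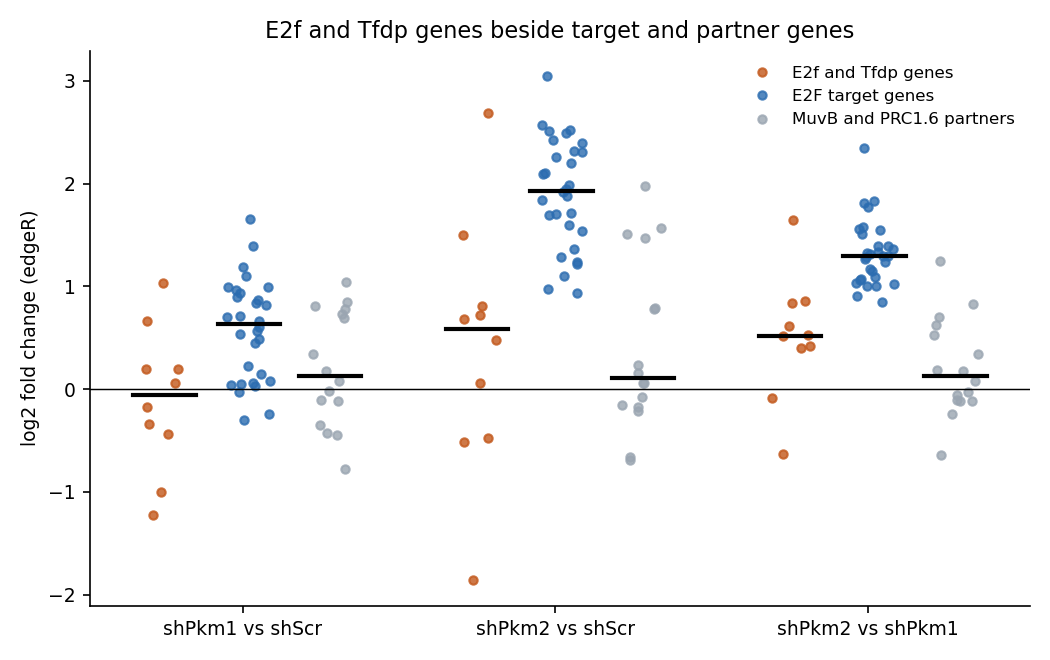
Log2 fold changes (vertical axis) of the E2f and Tfdp genes, the E2F target genes and the MuvB and Polycomb partners in the 3 comparisons (horizontal axis), with 1 point per gene and a bar at the median. The E2F targets have medians of 0.63, 1.93 and 1.29, and the family medians of -0.06, 0.58 and 0.52.

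Across the 6 libraries, the gene nearest in pattern to each member was found among 10718 genes whose counts averaged 50 or more. Genes with predicted, clone-derived or numeric symbols, such as Gm and Rik genes, were left out of this search. Nearness was measured by the root mean square difference of log2 CPM centred on each gene's mean. The genes nearest to E2f2 were Gys1 (0.0727), which encodes muscle glycogen synthase, and Zfp346 (0.0769). Those nearest to E2f7 were Dab2 (0.0630) and Clspn (0.0966), the latter for a protein of the replication checkpoint. Sap130 (0.0260) and Setd1a (0.0447) were nearest to E2f3, and Wdfy2 (0.0398) and Nfkb1 (0.0471) to E2f1. For E2f4 they were Psmd11 and Git1, for E2f5 Arhgef39 and Cdk19, for E2f6 Idh3a and Pdf, for E2f8 Cbwd1 and Epor, for Tfdp1 Gabpb1 and Usp14, and for Tfdp2 Rbmxl1 and Bcor. The nearest other member lay further away than these genes for every member, which a search among so few genes makes likely. That distance was largest for E2f2 (E2f4, 0.5525) and E2f7 (E2f5, 0.5219). With 3 groups of 2 libraries, many genes have a close neighbour by this measure, and the points share libraries and depth.

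Some members share genomic ground with other genes. On the opposite strand, E2f7 overlaps 1700020G17Rik over 2800 bases, E2f8 overlaps Gm2788 over 4116, E2f3 overlaps Gm11365 over 1979, E2f5 overlaps 1810022K09Rik over 26 and Tfdp2 overlaps Gm28924 over 241. Tfdp2 also overlaps Gm37195 on its own strand over 3018 bases. Whether counting used strand is not given in the sources used here, so reads of these pairs may not be told apart.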

How the data were processed

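RNA of 6 C2C12 libraries (3 groups of 2, grouped by sample title) was sequenced. Per the file headers, the deposited table gives an estimated count, an FPKM and a TPM for each of 57920 RefSeq transcripts and library. The deposited FPKM values and 9 columns of the authors' group means were not used. Per the submitters' processing notes, HISAT, StringTie, Bowtie, RSEM and DESeq2 were used with mm10, and neither their roles nor versions are given. Strandedness is not given in the sources used here.

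Estimated counts were summed per NCBI gene and rounded, giving 17558 genes. The 113 without a symbol held at most 0.148% of a library's counts. Genes were tested with edgeR 4.0.16 in R 4.3.3 (filterByExpr, minimum count 10 and total 15; TMM; quasi-likelihood F-test, two-sided; 1 coefficient per group over all 6 libraries; Benjamini-Hochberg over 12643 genes, threshold 0.05). Standard errors were taken from the log2 fold change and F. The common biological coefficient of variation was 0.0851. A permutation of 2 against 2 cannot give a p below 0.333.

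Deposited TPM values, summed per gene, gave orders and shares. CPM was used beside the tests after TPM and TMM were seen to differ. Coordinates come from a GRCm38.p6 RefSeq table and GENCODE annotation of the same build. Members and lists were chosen with earlier results of these data known. Named genes are the 10 members, Rb1, Rbl1, Rbl2, Pkm, Mki67, the germline genes, from each list and comparison the 2 largest called rises and falls with a mean of at least 50 counts, and the 2 genes nearest each member in pattern. Markers of myoblasts and of other cell types, listed genes that were not analysed and genes overlapping the members were named outside this rule. The search of promoters for motifs was added after the values were seen. Alternatives were DESeq2 size factors, library totals, other count filters, DESeq2 1.42.0, fits of 2 groups, a replicate block, limma 3.58.1 on log2(TPM + 1) and log2(TPM + 0.1), and leaving out each library.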

Additional observations from a re-analysis of the deposited data

How the results depend on the processing

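Direction and call held under every alternative for E2f2 and E2f7 in all 3 comparisons, for E2f6 in shPkm1, and for E2f1, E2f3, E2f5, Tfdp1 and Tfdp2 in shPkm2 against shScr. E2f1, E2f3, E2f4, E2f5, E2f6, E2f8 and Tfdp1 lost or gained a call elsewhere, as given beside their values. The cause was not tested. Per-gene alternatives were run for the members and for the gene and comparison pairs that the naming rule gave, and for member transcripts only where called. This narrowing was made after a wider run had been seen, in which more values turned sign.

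With library totals, log2 fold changes turned sign for E2f4 between the hairpin groups (0.046), and for Tfdp2 (0.021) and Rb1 (0.056) in shPkm1. With limma on log2(TPM + 1) and log2(TPM + 0.1) they turned for E2f8 (0.068 and 0.070), Tfdp2 (0.15 and 0.19) and Rb1 (0.25 and 0.25) in shPkm1. Without shScr replicate 2 they turned for E2f8 in shPkm2 (-0.059, and up to 0.20 without another library) and Tfdp1 in shPkm1 (-0.030, and up to 0.16). None of these values was called on the scale of the report except E2f8 in shPkm1.

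In shPkm1 against shScr, 5 members were higher with library totals and with both TPM pseudocounts, and 2 were lower with both TPM pseudocounts. Leaving out a library gave 1 to 3 higher and 3 to 4 lower, with 1 higher without shPkm1 replicate 1. In shPkm2 against shScr, 1 member was lower with library totals and on TPM, and 2 to 3 when a library was left out. Between the hairpin groups, 5 to 8 members were higher when a library was left out, with 5 without shPkm1 replicate 2.

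For E2F targets lower in shPkm1, the replicate block gave 1 and left-out libraries 0 to 2. For MuvB and Polycomb partners, those lower in shPkm1 were 1 with library totals, 0 and 1 on TPM, and 2 to 4 with a library left out. Those higher in shPkm2 against shScr were 10 with library totals and 11 on TPM, and those lower were 0 on TPM and 2 to 3 with a library left out. Those lower between the hairpin groups were 2 with only the groups compared, and 1 to 2 with a library left out.

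Transcript calls were the least stable. In shPkm1 against shScr, higher member transcripts numbered 0 with a mean of at least 50 counts, with only the groups compared and with the block, 2 with DESeq2 and 0 to 2 with a library left out. Lower ones numbered 2 with library totals, 6 with DESeq2, 1 with only the groups compared, 1 with the block and 0 to 2 with a library left out. In shPkm2 against shScr, higher ones numbered 9 with DESeq2, 3 with only the groups compared, 3 with the block and 1 to 3 with a library left out, and lower ones 1 with library totals, 5 with DESeq2, 2 with only the groups compared and 1 to 3 with a library left out. Between the hairpin groups, higher ones numbered 11 with DESeq2, 5 with only the groups compared, 1 with the block and 0 to 4 with a library left out, and lower ones 2 with DESeq2.

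Replicate numbers did not pair the samples: deviations from group means correlated at -0.0256, 0.0418 and 0.0527 between same-numbered libraries. With the replicate block, 2 members were higher and 4 lower in shPkm1, 6 and 3 in shPkm2, and 8 and 1 between the hairpin groups, as without it.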
